A study of Mus musculus with 20 samples.

Results

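The regions described here are stretches of the mouse autosomes that were under a 5-formylcytosine (5fC) peak in both *Tdg* null hearts and in the *Tdg* null liver of embryo i1, and that touched no peak of the 4 *Tdg* null hindbrain or the 2 *Tdg* null carcass libraries. Peaks lay on a grid of 100 bp bins, and stretches of 200 bp or more were kept. This gave 11517 regions, called shared heart and liver regions below, from a series of 1497348 peaks in 20 libraries. All libraries were 5fC pull-downs from E11.5 mouse embryos, either wild-type (WT) or *Tdg* null, the latter with a *Tdg* allele in which a neomycin resistance cassette stands where the enzyme's active part was encoded. The null libraries were 4 hindbrains (embryos 2A2, O4, Q2 and Z1) and 2 each of heart, liver and carcass (embryos i1 and i5), and the WT libraries were 4 hindbrains (2A8, O3, Q3 and Z3) and 2 each of heart, liver and carcass (i6 and i9). Heart, liver and carcass of a number came from a single embryo, so the liver and one of the hearts that chose the regions shared embryo i1. By the labels, WT i6 is paired with null i1 and WT i9 with null i5, and the hindbrains come from the litters A, O, Q and Z, each with a null and a WT embryo, so tissue comparisons with hindbrain also compare litters. The study left out a null liver for its quality without naming the embryo, and the null liver of embryo i5, which has 228 peaks, was not used in choosing the regions. Null embryos die after this stage and show haemorrhage, which limits them as a model of normal tissue, and each library came from a whole dissected organ and so from a mixture of cell types.

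TET enzymes oxidise 5-methylcytosine stepwise, and 5fC is one of the products. TDG, a DNA glycosylase, excises 5fC and starts its replacement by an unmodified cytosine, so 5fC builds up where TDG is missing. The embryonic heart holds muscle, endothelium and epicardium and is filled with blood, while the liver at this stage is the main site of red blood cell formation, with hepatoblasts, endothelium and mesothelium around the blood cells. GATA factors bind short words around GATA and act in both organs. Examples, not a full list, are Gata4, Gata5 and Gata6 in the heart and the epicardium, and Gata1 and Gata2 in blood cells. Bulk peaks cannot tell more cells of a type from more 5fC per cell.

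Sequences from the centres of shared heart and liver regions are printed to show what such a region looks like, on the plus strand of NCBIM37 (mm9). The first 6 belong to genes whose regions are described further on, and for each gene the region without exon bases and with the most GATA words in its central 200 bp was taken, the widest one where regions tied. Capitals mark the GATA words, which are AGATAA, its close form AGATAG, the word TGATAA and its close form TGATAG, each on both strands. The last sequence is from a region that lay under peaks of 5 WT libraries, and its centre holds no such word. From *Epb4.1*, which codes for a protein of the red cell skeleton, the 200 bp are intronic at chr4:131501601-131501800. From *Ank1*, the ankyrin that ties the red cell skeleton to the membrane, they are intronic at chr8:24154851-24155050. From *Slc25a37*, the mitochondrial iron importer mitoferrin, they are intronic at chr14:69872001-69872200. From *Gata4*, a cardiac transcription factor, they are intronic at chr14:63856351-63856550. From *Gata5*, its relative, they lie downstream of the gene at chr2:180059101-180059300. From *Fli1*, an ETS factor of endothelium and blood, they are intronic at chr9:32333351-32333550. The region under WT peaks lies between genes at chr19:42736551-42736750, with *Loxl4* as the nearest coding gene.
Epb4.1: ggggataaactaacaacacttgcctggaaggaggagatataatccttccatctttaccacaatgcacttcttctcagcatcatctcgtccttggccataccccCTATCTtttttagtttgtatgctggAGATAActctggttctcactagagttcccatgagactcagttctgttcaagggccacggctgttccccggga
Ank1: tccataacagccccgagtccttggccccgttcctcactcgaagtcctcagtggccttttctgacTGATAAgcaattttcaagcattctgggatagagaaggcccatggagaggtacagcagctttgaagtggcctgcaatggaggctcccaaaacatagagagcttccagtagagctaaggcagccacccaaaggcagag
Slc25a37: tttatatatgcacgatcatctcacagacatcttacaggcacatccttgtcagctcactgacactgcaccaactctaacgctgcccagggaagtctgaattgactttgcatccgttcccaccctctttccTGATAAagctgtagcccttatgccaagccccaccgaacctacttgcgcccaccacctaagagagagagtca
Gata4: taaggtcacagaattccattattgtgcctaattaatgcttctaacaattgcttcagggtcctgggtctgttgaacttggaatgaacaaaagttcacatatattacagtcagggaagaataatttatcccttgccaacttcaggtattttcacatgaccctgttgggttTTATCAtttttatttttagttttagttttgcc
Gata5: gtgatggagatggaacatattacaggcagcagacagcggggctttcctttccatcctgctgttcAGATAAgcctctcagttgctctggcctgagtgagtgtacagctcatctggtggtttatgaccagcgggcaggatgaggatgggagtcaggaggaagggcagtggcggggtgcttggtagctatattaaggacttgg
Fli1: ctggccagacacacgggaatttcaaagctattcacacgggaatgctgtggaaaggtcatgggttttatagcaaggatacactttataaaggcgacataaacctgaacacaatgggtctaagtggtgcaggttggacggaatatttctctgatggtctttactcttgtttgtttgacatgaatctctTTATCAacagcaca
near Loxl4: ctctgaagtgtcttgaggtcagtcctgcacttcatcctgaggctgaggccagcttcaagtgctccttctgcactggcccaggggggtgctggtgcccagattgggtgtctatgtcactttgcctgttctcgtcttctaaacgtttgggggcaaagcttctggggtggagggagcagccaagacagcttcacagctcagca

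The *Epb4.1* stretch holds 2 GATA words and 3 CpGs. The *Ank1*, *Slc25a37*, *Gata5* and *Fli1* stretches hold 1 GATA word each, with 3, 5, 3 and 4 CpGs. The *Gata4* stretch holds 1 GATA word and 0 CpGs.

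The 3 null libraries that had to be covered shared 48478 stretches of 200 bp or more. Of these, 25220 touched peaks of both null hindbrain and null carcass, 2473 touched hindbrain only and 9268 touched carcass only. The remaining 11517, or 23.8%, are the regions described. Their median width was 600 bp, with quartiles of 500 and 700 bp and a range from 200 to 3400 bp, and 973 reached 1000 bp. At the length threshold, 365 regions of exactly 200 bp were kept and 96 stretches of 100 bp were left out. Together they covered 7.09 Mb, or 0.296% of the 2394 Mb of autosomal sequence without gaps. Regions were spread over all 19 autosomes at 4.81 per Mb, from 3.92 on chromosome 7 to 5.93 on chromosome 19. The median gap to the next region was 74.6 kb, and 8.21% of gaps were under 5 kb.

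The absence of hindbrain and carcass peaks was local. The nearest null hindbrain or carcass peak lay at a median of 1300 bp, 21.6% of regions had one within 500 bp and 352 were directly adjacent to one. For comparison, the same rule gave 33334 regions covered in both null hearts and in no other null tissue, 7609 covered in the null liver alone, and 12326 covered in all 4 null hindbrains and both null carcasses but in neither heart nor liver. The regions took up 4.49% of the 254319 peaks of the null heart of embryo i1, 9.07% of the 126531 peaks of the heart of embryo i5 and 11.3% of the 101344 peaks of the liver.

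The null libraries chose the regions, so their values there describe the choice and were not tested. The 10 WT libraries took no part in it, although they come from the same litters or pairs as the null embryos. WT libraries held between 1563 and 42013 peaks and covered from 0.0357% to 0.991% of the autosomes. The files give no read counts, so depth is unknown, and each library was scaled by its own covered share. One feature of the WT livers bears on what follows. Their peaks lay over the regions found only in null heart (3.01 ± 0.21 on the log2 scale, SD, n = 2) more than those of the WT hearts did (1.97 ± 0.85, SD, n = 2). Over the regions found only in null liver, both were near the genome (0.64 ± 0.62 in WT liver and 0.77 ± 0.44 in WT heart, SD, n = 2 each). The heart and liver labels were used as given. Results are also given for WT heart and WT liver apart.

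WT heart and WT liver peaks fell on the shared heart and liver regions more often than the length they cover would give. WT carcass peaks did so to a smaller degree, and WT hindbrain peaks fell there less often. In WT heart, 276 regions (2.40%, 95% exact interval 2.12% to 2.69%) were under a peak in embryo i6 and 177 (1.54%, 1.32% to 1.78%) in embryo i9. In WT liver, the number was 621 (5.39%, 4.99% to 5.82%) in embryo i6 and 99 (0.860%, 0.699% to 1.05%) in embryo i9. In WT carcass, it was 269 in embryo i6 and 202 in embryo i9. The 4 WT hindbrains overlapped 0 regions in embryo 2A8, 6 in O3, 28 in Q3 and 2 in Z3. The count of 0 allows a share of up to 0.0260%. These intervals and this limit cover counting error only. The carcasses thus reached counts like those of the hearts, but their peaks covered 0.991% and 0.845% of the autosomes against 0.123% and 0.121% in the hearts.

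Scaled to the library, the log2 of the covered share of the regions over the covered share of the autosomes was 3.79 and 3.41 in the WT hearts of embryos i6 and i9. It was 3.77 and 4.29 in the WT livers of the same embryos. The WT carcasses gave 0.81 and 0.72. They thus also lay above the genome, although the rule allowed no null carcass peak there. Over regions only in null heart the WT carcasses gave -0.86 and -0.81. Over the shared heart and liver regions the WT hindbrains gave -4.74, -2.80, -1.44 and -1.66 for 2A8, O3, Q3 and Z3. The value of 2A8, which covered none of the regions, is set by the 1 bin added to every count. Every heart and liver library lay above every carcass and hindbrain library. The mean was 3.81 ± 0.36 (SD, n = 4) in heart and liver and -1.52 ± 2.12 (SD, n = 6) in hindbrain and carcass, a difference of 5.33 (two-sided exact permutation test over 210 assignments, p = 0.00952, the lowest value this design can reach). Hearts and livers of one embryo are not independent. Within embryos i6 and i9, heart and liver lay on average 2.97 and 3.13 above carcass, a mean of 3.05 with p = 0.222 in an exact permutation within embryos, the lowest that its 9 assignments allow. Without the WT livers the difference was 5.12, and without the WT hearts it was 5.55, in both cases with an exact permutation p of 0.0714, the lowest for 2 against 6 libraries.

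The same libraries were then compared on the regions shared by null hindbrain and carcass. There the order turned round. WT hindbrain gave a log2 value of 4.69 ± 0.78 (SD, n = 4) and WT carcass 3.79 ± 0.10 (SD, n = 2), against 0.52 ± 1.28 in WT heart and 0.48 ± 0.92 in WT liver (SD, n = 2 each). The ratio of the covered share of the heart and liver regions to that of the hindbrain and carcass regions is free of how much of the genome a library covers, apart from the bin added. On the log2 scale it was 4.18 and 1.99 in the WT hearts, 2.64 and 4.46 in the WT livers, -2.90 and -3.14 in the WT carcasses, and -9.50, -8.10, -6.58 and -5.24 in the WT hindbrains 2A8, O3, Q3 and Z3. Heart and liver averaged 3.32 ± 1.19 (SD, n = 4) and the others -5.91 ± 2.66 (SD, n = 6), a difference of 9.23 (two-sided exact permutation test, p = 0.00952). Within embryos, against carcass alone, it was 6.34, with p = 0.222 in the exact permutation, the lowest its assignments allow. The covered share of the heart and liver regions enters both measures, so the second is not independent of the first. Both region sets were also chosen on null libraries for opposite tissue patterns. WT heart and WT liver did not separate on either measure, with 3.6 ± 0.27 and 4.03 ± 0.37 for the first and 3.08 ± 1.55 and 3.55 ± 1.29 for the second (SD, n = 2 each). Their ranges overlapped and this difference was not tested.

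**Figure D1:**
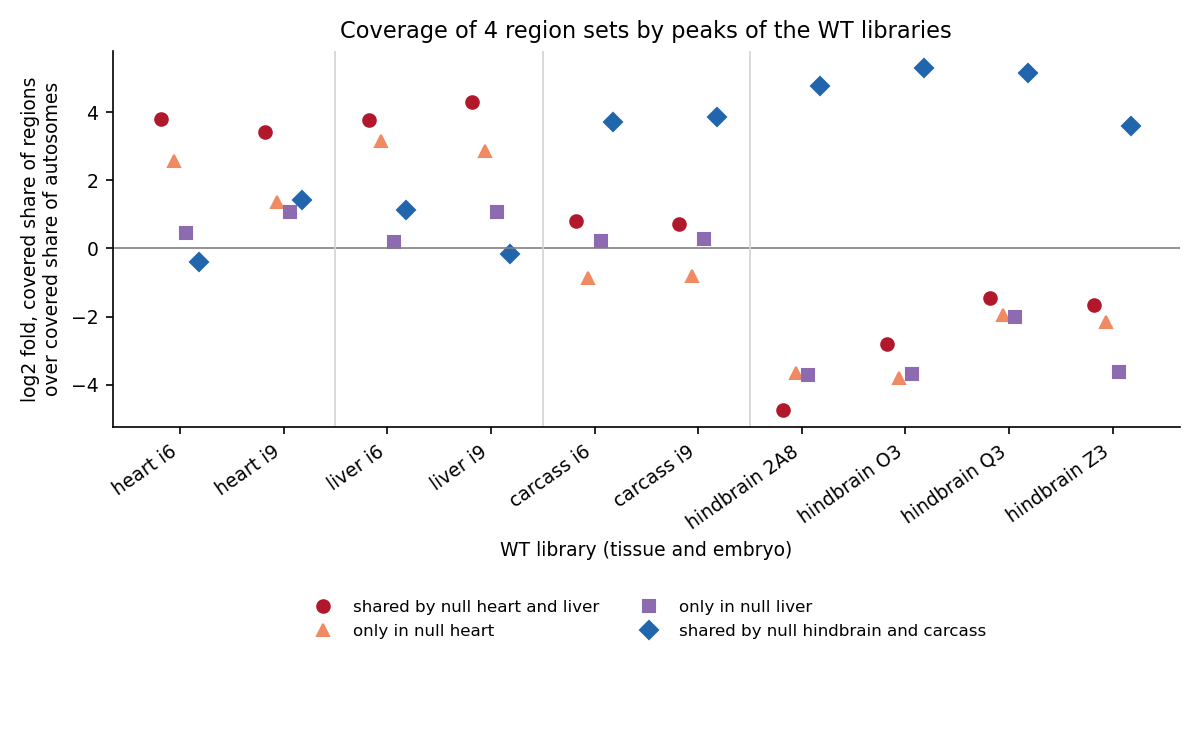
Log2 of the covered share of a region set over the covered share of the autosomes (y axis) in each of the 10 WT libraries (x axis), for 4 region sets chosen on null libraries. Regions shared by null heart and liver (circles) lie between 3.41 and 4.29 in WT heart and liver and at 0.81 or below in WT carcass and hindbrain, and regions shared by null hindbrain and carcass (diamonds) show the opposite order.

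Of the 11517 regions, 10267 (89.1%) were under no WT peak and 1250 (10.9%) under at least 1, of which 317 were under 2 or more. The share under no WT peak was 93.9% for regions only in null heart, 96.9% for regions only in null liver, 62.9% for regions shared by null hindbrain and carcass, and 69.1% for all 48478 stretches under both null hearts and the null liver. The WT libraries held from 1563 to 42013 peaks and the 3 null libraries that chose the regions from 101344 to 254319, and a high share is not particular to the heart and liver regions. A WT heart or liver peak covered 944 (8.20%), against 10.9% of all 48478 stretches, and 120 of these were covered in both tissues. The count rests in large part on the WT liver of embryo i6, without which it was 484. Both WT hearts covered 44 and both WT livers 65. A WT carcass peak covered 375, of which 288 had no WT heart or liver peak. At most 5 WT libraries covered a region, and 5 regions reached this number. The widest lay 49347 bp from the start of *Loxl4* on chromosome 19 and was covered in both hearts, both livers and 1 carcass. The second lay in an intron of *Atxn1* on chromosome 13 and was covered by the same 5 libraries. The others lay on chromosomes 10, 19 and 9, the one on chromosome 19 at 9968 bp from *Mbl2*, the gene of a mannose-binding lectin made in liver. The null liver of embryo i5, with 228 peaks in all, overlapped 0 of the regions, which allows a share of up to 0.0260%, while covering 0.0866 Mb of the autosomes.

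The regions lay mostly inside genes. Of their bases, 65.1% were in genes of the GENCODE annotation, 58.3% in introns, 6.75% in exons and 2.59% in UTRs, against 41.8%, 38.4%, 3.45% and 1.45% of the autosomes without gaps. Within 1 kb of a transcript start lay 6.47% of their bases, against 4.17% of the autosomes. The median distance to the start of a protein-coding gene was 37.1 kb, 1.64% were within 1 kb and 41.2% were beyond 50 kb. Regions only in null heart had a like place, with 66.6% of bases in genes and a median of 35.6 kb. Regions only in null liver had 47.9% in genes and 71.4 kb, and regions shared by null hindbrain and carcass 48.3% and 75.7 kb. GC content was 47.1% ± 4.43 (SD over regions) and there were 1.58 ± 0.60 CpGs per 100 bp (SD over regions), against 41.9% and 0.85 in the autosomes. In the central 200 bp these were 48.7% and 2.01, and 11 regions held no CpG. The other sets were also above the autosomes over their whole width. GC content and CpGs per 100 bp were 47.2% and 1.45 in regions only in null heart. They were 44.0% and 1.25 in regions only in null liver, and 46.5% and 1.68 in hindbrain and carcass regions.

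GATA words were more common at the centres of these regions than in the genome or in the hindbrain and carcass regions. At least 1 word stood in the central 200 bp of 6880 regions (59.7%). The share was 37.2% over 11968110 windows of 200 bp that tile the autosomes, 49% in regions only in null heart, 57.7% in regions only in null liver and 19.2% in regions shared by null hindbrain and carcass. The AT-rich words were thus more frequent in windows of higher GC content than the genome. Of the regions, 40.8% held exactly 1 word, 15.3% held 2 and 423 held 3 or more. Over the whole width, 86.5% held at least 1. Regions are not replicates, and these shares were not tested.

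The words were gathered at the centre. Their density was 4.25 and 4.22 per kb in the 100 bp on either side of the centre, 3.04 and 3.07 in the next 100 bp, and between 2.14 and 2.28 beyond 500 bp. Regions only in null heart reached 3.34 per kb at the centre and regions only in null liver 4.14. Hindbrain and carcass regions went the other way, to 1.10 per kb at the centre from 2.39 at 1450 bp before it. CpGs rose to about the same height in both, 2.02 per 100 bp in the heart and liver regions and 2.12 in the hindbrain and carcass regions.

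**Figure D2:**
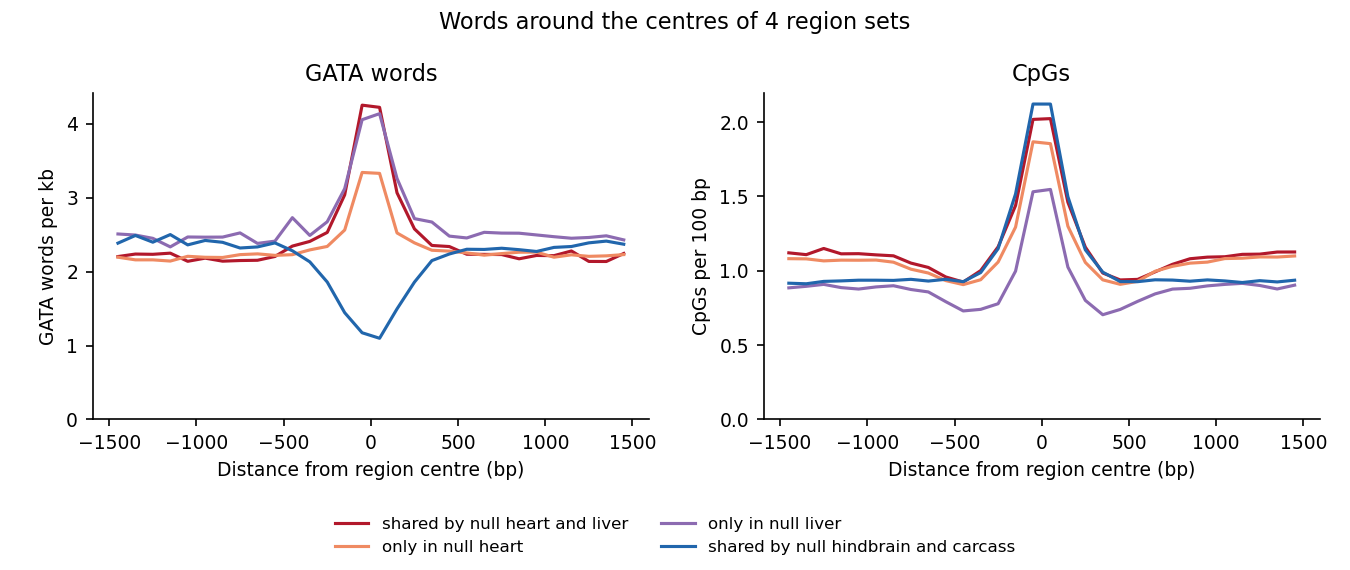
GATA words per kb (left) and CpGs per 100 bp (right) against the distance from the region centre in bp, in steps of 100 bp, as means over each of the 4 region sets. GATA words rise to 4.25 per kb at the centre of regions shared by null heart and liver and fall to 1.10 in regions shared by null hindbrain and carcass, while CpGs rise in all 4 sets.

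Other words differed too. The Mef2 words CTAAAAATA, CTATTTTTA, CTATAAATA and CTATTTATA, bound by muscle factors, were in 2.32% of centres, 1.60% of all windows and 0.487% of hindbrain and carcass regions, and regions only in null heart had more, 3.37%. The AP-1 words TGACTCA and TGAGTCA were in 6.36%, against 3.14% of all windows and 3.26% of hindbrain and carcass regions. Regions only in null heart had nearly the same share, 6.20%, and regions only in null liver 4.68%. The Klf words CCACACCC and CCCCACCC, of the kind that Klf1 binds in red cells, were in 4.76%. All windows gave 3.33%, hindbrain and carcass regions 3.29%, regions only in null heart 4.64% and regions only in null liver 2.88%. The ETS words AGGAAG and CGGAAG were in 32.9%, against 22.9% of all windows and 26.2% of hindbrain and carcass regions. They were in 30.1% of regions only in null heart and 32.7% of regions only in null liver. Below the genome were the Sox words ACAATGG and ACAATAG, at 3.0% against 5.83%, while hindbrain and carcass regions had 7.47%. Regions only in null heart, at 3.77%, and only in null liver, at 3.06%, were below the genome too. The E-box CAGCTG was in 13.7% of centres and in 20.5% of hindbrain and carcass centres, against 7.37% of all windows. It was in 13.2% of regions only in null heart and 10.9% of those only in null liver. The E-box CAGATG, which Tal1 can bind, was at 15.08% against 15.04%, whereas hindbrain and carcass regions reached 26.9%. Words of liver factors were at 6.82% against 6.97% for the forkhead words TGTTTAC and TGTTTGC, 3.48% against 2.99% for the Hnf4a word CAAAGTC, and 7.51% against 9.28% for the C/EBP word TTGCNNAA. The Nkx2-5 words CACTTAA and CACTTGA were at 5.37% against 5.55%, with 7.71% in regions only in null heart, and the Tead word GGAATG was at 13.1% against 10.8%. Each word was searched on both strands. A match describes the letters of a window and is not a bound site.

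**Figure D3:**
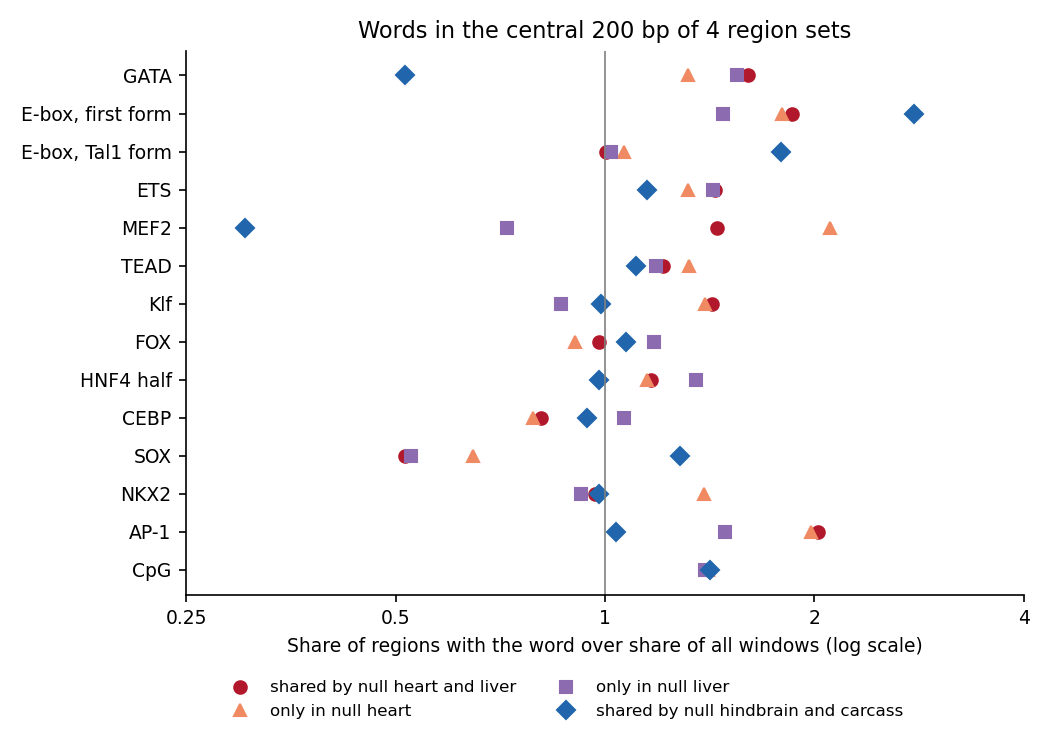
Share of regions with a word in the central 200 bp over the share of all autosomal windows (x axis, log scale) for 14 kinds of word (y axis) in 4 region sets. Regions shared by null heart and liver (circles) lie at 1.60 for GATA and 0.52 for Sox words, and regions shared by null hindbrain and carcass (diamonds) at 0.52 and 1.28.

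In red blood cell precursors Tal1 and Gata1 bind together at the letters CTG followed at a short distance by a GATA word. For the 22795 GATA words in the whole width of the regions, CTG on the same strand before the word was counted at spacings from 0 to 15 bp and divided by the genome's share at that spacing. The ratio was highest at 7 bp (1.86, 683 cases) and 8 bp (1.77, 634 cases), and between 1.27 and 1.64 at the other spacings. In regions only in null heart the ratios at 7 and 8 bp were both 1.60, which other spacings there also reached. In regions only in null liver they were 1.28 and 1.46, and in hindbrain and carcass regions 1.30 and 1.49. These ratios are descriptions without a test.

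WT peaks, which had no part in the choice, were set against the number of GATA words. Of regions with 0 words in the centre, 7.22% were under a WT heart or liver peak, of those with 1 word 8.03%, with 2 words 9.76% and with 3 or more 14.2%, at a median width of 600 bp in each class. Without the WT liver of embryo i6 these shares were 3.86%, 4.13%, 4.71% and 6.62%. In the WT liver of embryo i6 the share went from 4.46% with 0 words to 11.6% with 3 or more, and in that of embryo i9 from 0.755% to 2.60%. The WT hearts gave 2.16% and 3.07% in embryo i6 and 1.40% and 1.65% in embryo i9. The WT carcasses went the other way, from 3.26% to 1.18% in embryo i6 and from 2.33% to 0.473% in embryo i9. All 4 heart and liver libraries thus had a higher share at 3 or more words than at 0, and both carcasses a lower one. The steps between were not all upward. The WT heart of embryo i9 had 1.70% at 2 words, and the WT liver of embryo i9 had 0.703% at 1 word. These shares were not tested. The last class holds 423 regions, of which 49 and 11 were covered in the livers, 13 and 7 in the hearts and 5 and 2 in the carcasses.

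Genes were then taken from 8 lists of cell type markers, and a region was given to a gene when it lay in it or within 10 kb. Over all 21150 autosomal protein-coding genes, 26.0% had at least 1 shared heart and liver region, 49.4% a region only in null heart, 14.7% a region only in null liver and 19.7% a region shared by null hindbrain and carcass. The peaks that chose the regions are the same that place them at genes, so counts are descriptions, and intervals cover counting error only. Regions stood most densely at cardiomyocyte and erythroid genes. Of 36 cardiomyocyte genes, 27 (75%) had a region, with 22.1 regions per Mb against 6.94 over all genes, a ratio of 3.19 (interval 2.52 to 3.97). Of 32 erythroid genes, 18 (56.3%) had one, with 24.5 per Mb, a ratio of 3.53 (2.57 to 4.72). The median number per gene was 1.5 in the cardiomyocyte list, 1 in the erythroid list and 0 over all genes.

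Set beside the other region sets, these lists differed. For regions only in null heart, the ratio was 3.53 (3.11 to 3.99) at cardiomyocyte genes and 1.32 (0.982 to 1.74) at erythroid genes. For regions only in null liver it was 0.738 (0.337 to 1.40) and 1.11 (0.448 to 2.30), and for hindbrain and carcass regions 0.570 (0.284 to 1.02) and 1.11 (0.552 to 1.98). Hepatoblast genes, by contrast, had the heart and liver regions at about the rate of all genes, in 7 of 28 genes (25%) with a ratio of 1.20 (0.597 to 2.14), and the regions only in null liver at 2.21 (1.06 to 4.06). The latter ratio was 1.19 (0.635 to 2.04) with 50 kb on either side and 2.10 (0.772 to 4.58) for the gene alone. Endothelial genes had a region in 11 of 27 (40.7%) at a ratio of 1.55 (0.980 to 2.32). Blood progenitor and myeloid genes had one in 9 of 17 (52.9%) at 1.48 (0.788 to 2.53), and mesothelial, epicardial and stromal genes in 5 of 16 (31.3%) at 1.90 (0.95 to 3.40). These 3 ratios moved with the window. Endothelial genes gave 1.83 (1.15 to 2.77) for the gene alone and 1.36 (0.957 to 1.87) with 50 kb on either side. Blood progenitor and myeloid genes gave 1.30 (0.593 to 2.46) and 1.92 (1.32 to 2.71), and mesothelial, epicardial and stromal genes 0.780 (0.161 to 2.28) and 1.72 (1.09 to 2.58), in the same order. Neural genes had a region at 2 of 21 genes (9.52%), a ratio of 0.137 (0.0166 to 0.496), against 1.94 (1.21 to 2.93) for hindbrain and carcass regions. Regions only in null heart were also low there, at 0.255 (0.127 to 0.456), and regions only in null liver gave 0.976 (0.392 to 2.01). The rule dropped every stretch that touched a null hindbrain peak, for these sets as well.

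**Figure D4:**
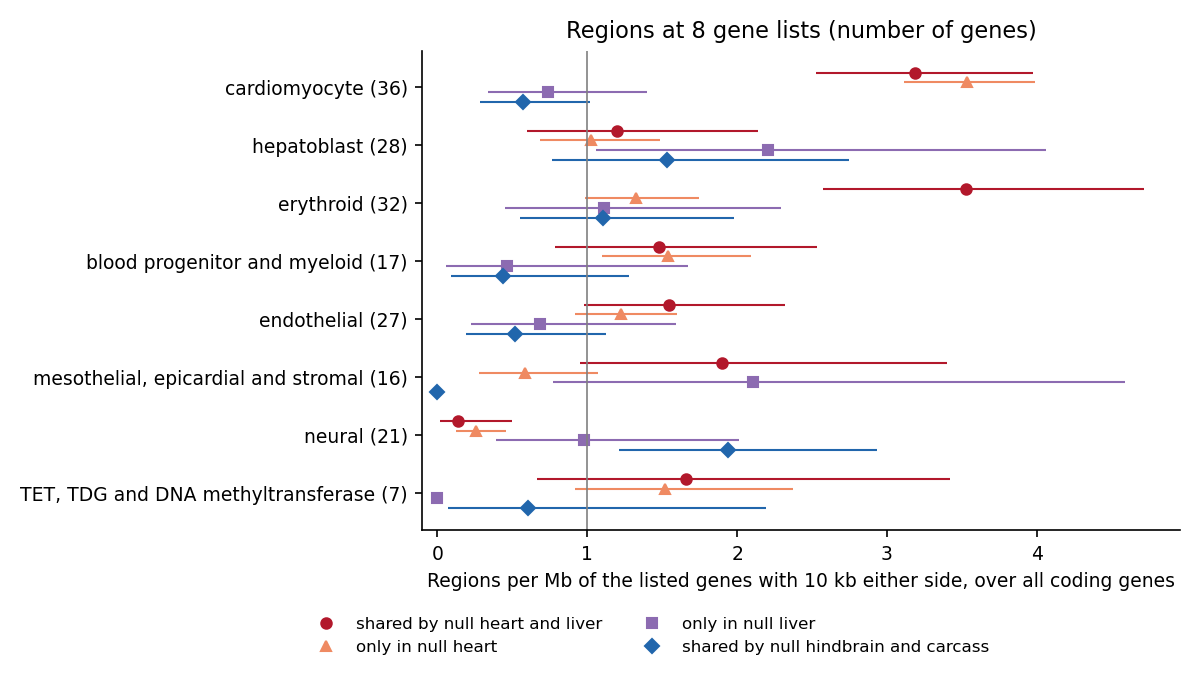
Regions per Mb of the listed genes with 10 kb on either side, divided by the same over all coding genes (x axis), for 8 lists (y axis, number of genes in brackets) and 4 region sets. Lines are 95% Poisson intervals of the region count, with none drawn at a count of 0, and the regions shared by null heart and liver (circles) stand at 3.19 for cardiomyocyte, 3.53 for erythroid and 0.137 for neural genes.

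Among red cell genes, *Ank1* and *Epb4.1* had 6 regions each, and *Spnb1*, the erythroid beta spectrin, 4. Per 100 kb of gene and flanks these were 3.07, 3.49 and 2.67. *Slc25a37* had 4, at 6.32 per 100 kb. *Rhd*, *Slc4a1*, *Kel* and *Tmod1*, which code for a Rhesus protein, the anion exchanger band 3, a blood group antigen and a tropomodulin, had 3 each. Of the enzymes of haem synthesis, *Cpox* and *Fech* had 2 each. Among the 14 genes without a region were the erythroid factors *Tal1*, *Klf1* and *Lmo2*, the erythropoietin receptor gene *Epor* and the globin genes *Hba-a1*, *Hbb-y* and *Hbb-bh1*. All 6 regions of *Ank1* were intronic, 5 of them between 56084 and 71134 bp from the annotated start, and none was under a WT peak. In the null heart of embryo i1, the gene and 10 kb on either side held 48 peaks, in that of embryo i5 34, and in the null liver of embryo i1 19. The null carcasses had 19 and 27 there and the null hindbrains from 13 to 17. *Epb4.1* had all 6 regions in introns, 3 of them at 2236, 7936 and 14936 bp from the start.

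Cardiac genes with regions ran from transcription factors to channels of the calcium cycle. *Ryr2*, the calcium release channel of heart muscle, had 13 regions, and *Cacna1c*, the main calcium channel of its membrane, had 9, with 41 and 48 regions only in null heart. The cofactor gene *Myocd* had 6, all intronic and 3 at 2891, 5091 and 7791 bp from the start, and the second of these held 3 GATA words in its centre. *Tbx5* and *Gata6* had 3 each and the titin gene *Ttn* 4, while *Nkx2-5*, *Hand2* and *Nppa* had none. *Gata4* had 7, at 7.55 per 100 kb of gene and flanks, together with 11 regions only in null heart and 0 of the other sets. Around *Gata4* the null hearts held 35 and 27 peaks and the null liver 18, against 2 in each null carcass and 4 or 5 in each null hindbrain. Its regions lay from 1321 bp upstream of the annotated start to 76879 bp beyond it, past the end of the gene, and the widest, of 1900 bp, was the intronic one whose centre is printed above. No WT heart or liver peak lay in this window, while the WT hindbrain Q3 had 2 peaks and each WT carcass 1.

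**Figure D5:**
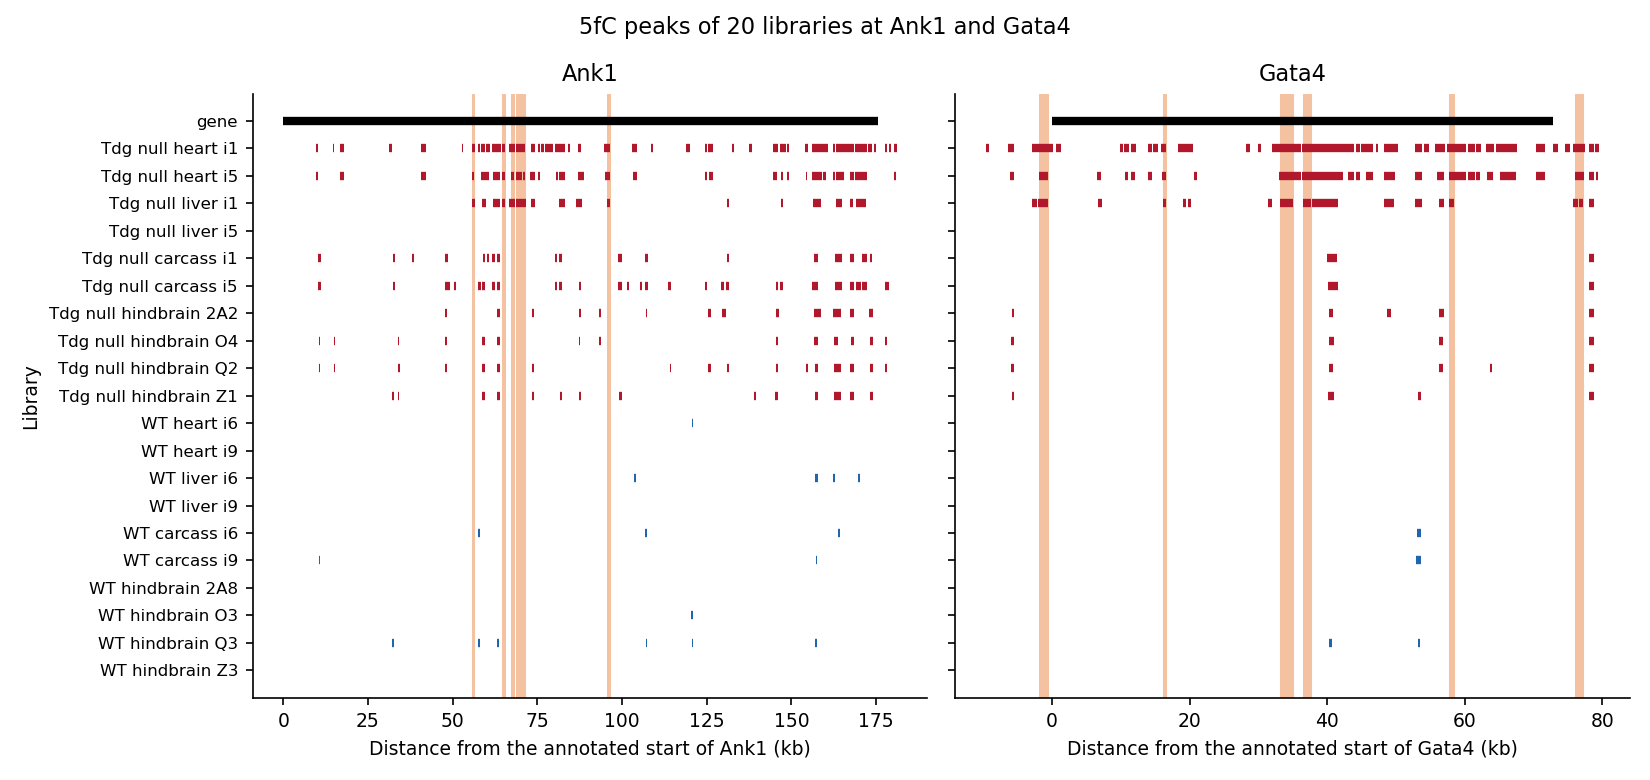
Peaks of the 20 libraries (lines, red for *Tdg* null and blue for WT) against the distance in kb from the annotated start of *Ank1* (left) and *Gata4* (right), with the gene as a black bar and the shared heart and liver regions as shaded bands. *Ank1* has 6 bands and *Gata4* 7, and the null liver of embryo i5 has no peak in either window.

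The other lists gave fewer regions per gene. *Gata5* had 4 regions at a length of 9567 bp, the highest density of the named genes at 13.5 per 100 kb, 3 of them upstream and 1 downstream of the gene. *Podxl*, which codes for the surface protein podocalyxin, also had 4, and the epicardial factor gene *Wt1* had 1. Of the endothelial genes, *Pecam1* and *Fli1* had 4 and *Ets1* and the scavenger receptor gene *Stab2* 3. *Meis1*, a homeobox gene of blood stem cells, had 3 and *Runx1* 2. The nuclear receptor gene *Nr5a2* led the hepatoblast genes with 3 and *Prox1* had 2, whereas the liver protein genes *Alb*, *Afp* and *Apob* had none. Of the 7 TET, TDG and DNA methyltransferase genes, *Tet3* and *Dnmt3a* had 3 regions each and *Tdg* 1, which lay downstream of it. These 3 genes are 42.9% of the list, which had a ratio of 1.66 (0.667 to 3.42).

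Over all coding genes, the most regions were in long gene models. The model *Gm20388*, 4434882 bp long, had 52 regions and *Fgfr2*, annotated over 3009069 bp, had 24, at 1.17 and 0.79 per 100 kb. *Kalrn* had 17, *Arfip1* 14, and *Prkca*, *Ryr2* and *Grip1* 13 each. *Med12l*, *Magi1* and *Hipk2* had 12, and of these 10 models *Hipk2*, a kinase gene of 181801 bp, was the densest at 5.95 per 100 kb. *Prkca*, the gene of a protein kinase C, had 13 regions against 16 only in null heart and 1 only in null liver, and *Med12l* had 12 against 4 and 3. The widest region, of 3400 bp, lay in an intron of *Anks1*. It was followed by 2 of 2700 bp, in *Prkca* and overlapping *Gmpr*, and by 2 of 2500 bp, between *Pdgfrb* and *Csf1r* and in *Rela*. Then came *Igsf3* and *Fam38a* with 2400 bp, *Slc35e3* with 2300 bp, and *Ormdl3* and *Snx9* with 2200 bp. Of these widest regions those in *Prkca* and *Snx9* were under peaks of 2 WT libraries each, both carcasses for *Prkca* and both livers for *Snx9*. Those in *Fam38a* and *Ormdl3* were under 1, the hindbrain Q3 and the liver of embryo i6.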

How the data were processed

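5fC was pulled down from DNA of E11.5 hindbrain, heart, liver and carcass and sequenced, giving 20 libraries. Per the study's methods, the authors trimmed with Trim Galore, mapped to NCBIM37 (mm9) with Bowtie2 and called peaks in each pull-down separately with MACS in SeqMonk. The deposited files hold only the start and end positions of peaks, with no height or depth. Use of an input and removal of duplicates are not given in the sources used here.

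Positions were read as 1-based and inclusive. The region set and the gene lists were chosen with earlier results of these data known. A stretch was dropped when any of its bins lay under a null hindbrain or null carcass peak. The first measure is log2 of the covered share of region bins, with 1 bin added, over the covered share of autosomal bins without gaps, and the second is log2 of the ratio of that share to the one in hindbrain and carcass regions, with 1 bin added to both. Both were compared between 4 WT heart and liver and 6 WT hindbrain and carcass libraries with an exact permutation test, two-sided, in which each library is a value. Shares have 95% exact Clopper-Pearson intervals, the limit for a count of 0 is 3 counts, and list ratios have 95% Poisson intervals. Words were searched on both strands in the central 200 bp. Genes came from the GENCODE annotation of NCBIM37. After 131 ambiguous symbols were dropped, 21150 autosomal protein-coding genes remained, and *Tnnc1*, *Trf*, *Alas2*, *Gata1*, *Gfi1*, *Dcx*, *Sox1* and *Sox3* of the lists were not used, being ambiguous, not matched or not autosomal. The genes named are the 10 with the most regions, the 4 with the most in each list, *Gata4* and *Tdg*; the regions named are the 10 widest and the 5 under most WT libraries. Other listed genes were named after their values were seen. Some genes that this rule gives are not reported here. The work ran in Python (version 3.11.15), where pandas 2.3.3 and numpy 2.4.6 held the tables, scipy 1.17.1 gave the intervals and matplotlib 3.10.9 the figures, and was tested on simulated peaks. The reference is not masked, so repeats were not analysed.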

Additional observations from a re-analysis of the deposited data

Results flagged for a closer look

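The X chromosome was outside the rule. The same steps applied to it gave 307 stretches under both null hearts and the null liver, of which 97 (31.6%) touched no null hindbrain or carcass peak, against 23.8% on the autosomes. The WT libraries were not examined on the X chromosome.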

How the results depend on the processing

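The number of regions was 6775 when heart and liver peaks had to be 600 bp or more, and between 11612 and 44430 when 1 library of the rule was left out. The largest value came without the single null liver, which then asks only for both hearts, and the loss of the null heart of embryo i5 gave 19970. The other 5 alternatives gave from 9025 to 16723. The 2 differences between WT libraries kept their direction under every alternative run, from 3.05 to 6.48 for the first measure and from 6.34 to 10.7 for the second. With 1 WT library left out, they ranged from 4.69 to 5.80 and from 8.51 to 9.83, and the exact p stayed at or below 0.0238. Against WT carcass alone they were 3.05 and 6.34 (exact p = 0.133), and with the embryo as replicate block the values were the same 3.05 and 6.34 (exact p = 0.222). Without both WT livers they were 5.12 and 8.99, and without both WT hearts 5.55 and 9.46 (exact p = 0.0714), settings chosen after seeing the data. Each of these p-values is the lowest its number of libraries allows. With 1 WT heart or liver library left out, also chosen after seeing the data, the number of regions under a WT heart or liver peak was between 484 and 914, the lowest without the liver of embryo i6. Against 3.53 with 10 kb, erythroid genes gave a ratio of 2.45 with 50 kb on either side, and against 1.90, mesothelial, epicardial and stromal genes 0.780 without flanks. The cardiomyocyte ratio without *Ryr2* and *Cacna1c*, also chosen after seeing the data, was 3.46. Depth is unknown, so a region outside WT peaks may be unmarked or missed.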
